A study of Mus musculus with 16 samples.

Results

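The genes described here are the chemokines and chemokine receptors measured in mouse retroperitoneal fat, which lies behind the peritoneum near the kidneys. They were chosen by name alone, as probe sets whose only gene symbol begins with Ccl, Cxcl, Ccr, Cxcr, Cx3c, Xcl or Ackr. The rule found 42 genes, 24 ligands and 18 receptors, among the 8252 genes with a named probe set, and they were measured by 47 of 12488 probe sets. Where a gene had several probe sets (4 members), the one with the highest mean of log2 signals stood for it.

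Chemokines are small secreted proteins that steer the movement of leukocytes. They bind receptors of the G protein-coupled family, and their names (CC, CXC, CX3C, XC) follow the spacing of the first conserved cysteines. Atypical receptors, named Ackr, bind chemokines without the usual G protein signal and remove or move them. In fat, Ccl2 and its receptor Ccr2 are best known for drawing monocytes, the precursors of macrophages, into the tissue.

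All mice were gonadectomised (GDX), and messenger RNA was measured on 16 single-colour arrays, 8 from females and 8 from males. In each sex 1 array came from mice that had received 0.1 mg dihydrotestosterone (DHT, the androgen that testosterone is converted to) under the skin 1, 3, 6, 12, 18 or 24 h (hours) before necropsy, and 2 arrays from mice that had received vehicle. The design asks how fat of both sexes responds to an androgen over a day. The vehicle labels give a time of 24 h. No label gives the age or strain, fat of a group's mice was collected together, and no label says whether both vehicle arrays of a sex stem from different animals. P-values therefore describe the spread among these arrays, part of which may be technical.

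Fat and sex labels were checked with marker genes. Adipoq, the adipocyte hormone adiponectin, averaged 22700 ± 3670 (SD, n = 8) in the female arrays and 22900 ± 9110 (n = 8) in the male arrays, and neither Xist nor the Y-linked Eif2s3y overlapped between the sexes. Male vehicle replicate 2 stood apart: its summed signal of 17 skeletal muscle genes was 370000, against 41700 to 72700 on the 7 other male arrays. Its Adipoq signal was 1950, and it correlated with the other arrays at r = 0.608 to 0.703 across genes, which are not independent replicates. Of the 22 chemokine genes tested, 12 had their lowest signal on it and Cxcl14 its highest, beside 32.7% of all tested genes lowest there. Results are therefore given for all 16 arrays and for the 15 arrays without it.

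Of the 42 members, 22 passed the filter on low signal. It kept genes whose mean of log2(signal + 16) reached the 40th percentile of probe sets, a level that corresponds to a signal of 115.87. They were the ligands Ccl1, Ccl2, Ccl5, Ccl6, Ccl7, Ccl8, Ccl9, Ccl11, Ccl12, Ccl22, Cx3cl1, Cxcl1, Cxcl9, Cxcl12 and Cxcl14 and the receptors Ccr1, Ccr2, Cx3cr1, Cxcr3, Ackr1, Ackr2 and Ackr3. The 20 below it were the ligands Ccl3, Ccl4, Ccl17, Ccl25, Cxcl2, Cxcl5, Cxcl10, Cxcl13 and Xcl1 and the receptors Ccr1l1, Ccr3, Ccr4, Ccr6, Ccr7, Ccr8, Ccr9, Cxcr2, Cxcr4, Cxcr5 and Ackr4. Ligands passed the filter in 15 of 24 cases and receptors in 7 of 18.

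Many members lie side by side in the genome. Ccl2, Ccl7, Ccl11, Ccl12, Ccl8 and Ccl1 are consecutive protein-coding genes on chromosome 11 in the RefSeq annotation, and Ccl5, Ccl9, Ccl6, Ccl3 and Ccl4 form a second run of 5 on the same chromosome. On chromosome 9 Ccr1, Ccr1l1, Ccr3 and Ccr2 form a run, and on chromosome 5 Cxcl1 lies beside Cxcl2. The 250 bases before a transcription start are printed for 6 members whose levels are set out below, with matches to the searched motifs in capitals. For Ccr2 and Cxcl14 this start lies inside the annotated gene, and so does the printed window. The sequences are RefSeq's on GRCm38.p6, read 5′ to 3′ on the gene's strand. Ccl8 (chr11:82114935-82115184) and Ccl12 (chr11:82101595-82101844), both on the plus strand, are shown because both passed the test between the sexes, and their capitals mark the element TATAAA, 32 and 31 bases before the start.
Ccl8: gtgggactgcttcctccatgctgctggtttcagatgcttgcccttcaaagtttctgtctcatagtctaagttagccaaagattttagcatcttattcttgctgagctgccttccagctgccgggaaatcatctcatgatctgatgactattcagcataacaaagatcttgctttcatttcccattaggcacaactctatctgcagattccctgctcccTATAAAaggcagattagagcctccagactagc
Ccl12: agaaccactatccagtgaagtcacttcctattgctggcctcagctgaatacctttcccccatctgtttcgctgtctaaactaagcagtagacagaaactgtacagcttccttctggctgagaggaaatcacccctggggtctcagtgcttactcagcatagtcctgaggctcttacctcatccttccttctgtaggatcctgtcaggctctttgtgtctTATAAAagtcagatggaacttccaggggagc
Ccr2 (chr9:124101933-124102182, plus strand) is shown as the receptor that passed the test between the sexes, and none of the searched motifs matched there.
Ccr2: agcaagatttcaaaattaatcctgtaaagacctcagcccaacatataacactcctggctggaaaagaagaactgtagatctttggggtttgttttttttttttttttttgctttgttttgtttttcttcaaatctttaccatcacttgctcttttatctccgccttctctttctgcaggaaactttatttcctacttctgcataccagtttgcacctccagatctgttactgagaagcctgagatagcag
Cxcl1 (chr5:90890995-90891244) and Cxcl2 (chr5:90903649-90903898), on the plus strand, are the neutrophil-attracting pair. Their capitals mark overlapping matches to the NF-kB consensus, which begin 71 and 70 bases before the start in Cxcl1 and 97 and 96 in Cxcl2.
Cxcl1: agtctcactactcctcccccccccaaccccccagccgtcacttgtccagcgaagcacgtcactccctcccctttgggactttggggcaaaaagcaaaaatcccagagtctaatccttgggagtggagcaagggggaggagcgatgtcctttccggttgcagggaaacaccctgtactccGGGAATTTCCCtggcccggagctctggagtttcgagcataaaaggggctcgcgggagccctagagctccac
Cxcl2: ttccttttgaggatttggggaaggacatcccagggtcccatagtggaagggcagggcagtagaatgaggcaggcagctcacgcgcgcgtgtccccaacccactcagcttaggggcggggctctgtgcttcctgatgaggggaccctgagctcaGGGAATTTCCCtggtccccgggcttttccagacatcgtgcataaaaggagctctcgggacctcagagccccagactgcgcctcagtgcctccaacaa
Cxcl14 (chr13:56296552-56296801, minus strand) is shown because it moved opposite to most members. Its capitals mark a steroid receptor half-site (AGAACA, here on the other strand, 193 bases before the start) that overlaps a GAS element (TTCNNNGAA, 191 bases), and an ISRE (GAAA, any 2 bases, GAAA, beginning 172 bases before the start). GAS and ISRE are elements linked to interferon signalling.
Cxcl14: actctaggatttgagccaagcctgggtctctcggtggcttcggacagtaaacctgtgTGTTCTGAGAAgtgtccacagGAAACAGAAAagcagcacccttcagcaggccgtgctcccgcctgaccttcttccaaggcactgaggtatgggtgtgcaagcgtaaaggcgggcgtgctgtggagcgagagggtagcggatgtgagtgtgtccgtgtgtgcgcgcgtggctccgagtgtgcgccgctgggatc

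Over all members, promoters were found for 34 of 42 genes (36 promoters), and both strands were searched. The NF-kB consensus matched in 19.4% of them and in 3.9% of all 32851 promoters. TATAAA matched in 30.6% of member promoters and 12.4% of all, GAS in 11.1% and 7.02%, ISRE in 5.56% and 2.98%, and AGAACA in 13.9% and 16.1%. A match describes letters in this window, which for some genes lies inside the annotated gene, and is not a measured binding site.

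Some chemokine genes passed the test between the sexes. None passed after DHT, where few genes of any kind did (0.0703% over all times with 16 arrays, 0.0878% with 15). With 15 arrays, females had higher signals of the ligands Ccl8, Ccl5, Ccl12, Cx3cl1 and Cxcl12 and of the receptor Ccr2, and lower signals of Ccl11 and Cxcl14 (limma, adjusted p under 0.05). That is 8 of 22 tested members (36.4%), beside 16.6% of all 5693 tested genes. By direction 6 members were higher, beside 8.82% of genes, and 2 were lower, beside 7.76%. With all 16 arrays only Ccl5 and Ccl12 passed, 2 of 22 members (9.09%) beside 5.74% of genes, both higher in females as 4.62% of genes were. The median log2 difference was 0.16 over members and 0.00 over all genes with 15 arrays, and 0.36 and 0.02 with 16.

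**Figure D1:**
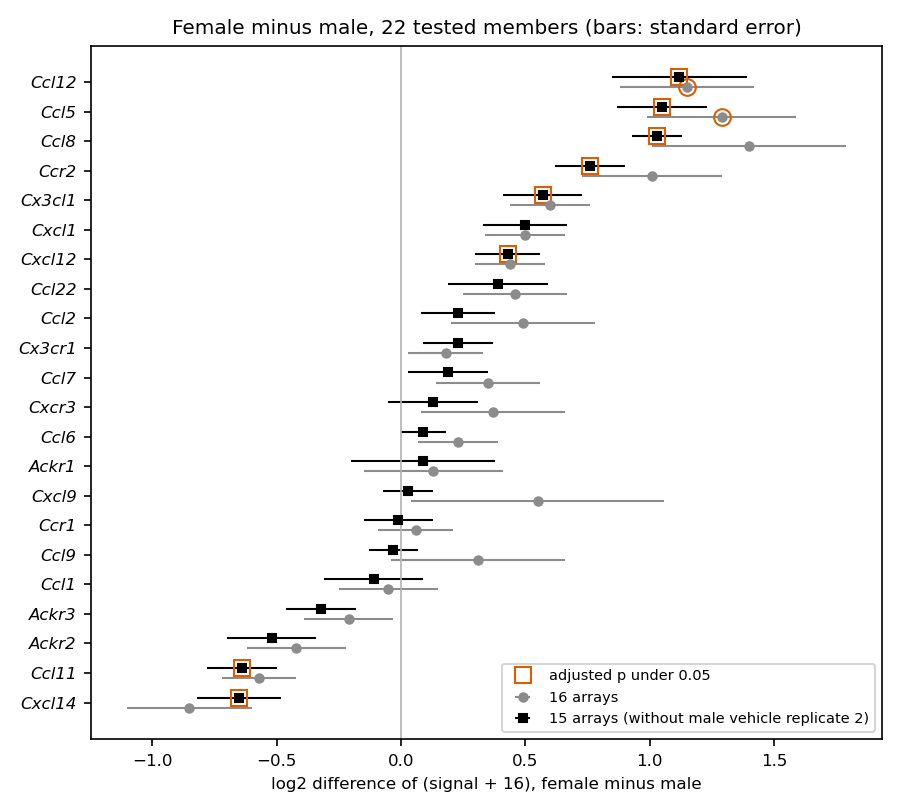
The log2 difference of (signal + 16), female minus male, for the 22 tested members, with bars of 1 standard error. Squares are the fit of 15 arrays and circles that of 16, and ringed points have an adjusted p under 0.05: 8 members with 15 arrays, from 1.12 for Ccl12 to -0.65 for Cxcl14, and 2 with 16.

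Among the monocyte-attracting ligands, Ccl8 had the smallest p. Its signals were 2462 (lowest), 3310 (median) and 3749 (highest) in the 8 females, against 184, 1458 and 2259 in the 8 males, the 184 being male vehicle replicate 2. No female array overlapped any male array. The log2 difference was 1.03 ± 0.10 (limma SE, adjusted p = 3.51e-05 with 15 arrays), a 2.04-fold higher level in females, and 1.40 ± 0.39 with 16 (adjusted p = 0.057). Ccl8 was higher in the female than in the male array at all 6 DHT times, by 1.66 to 2.82 times.

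Ccl12, a mouse ligand of Ccr2 encoded next to Ccl8, had signals of 87.5, 204.5 and 350.3 in females, against 31.4, 65.0 and 242 in males (lowest, median, highest). Its mean was 205 in females and 97.1 in males, beside a filter level of 115.87, so it passed the filter through the female arrays. The ranges overlapped, since the male 6 and 24 h arrays had 185 and 242. Male vehicle replicate 1 (106.5) also lay above female vehicle replicate 1 (87.5). At each of the 6 DHT times the female array was nevertheless the higher one, by 1.02 to 5.47 times. Females exceeded males by a log2 difference of 1.12 ± 0.27 with 15 arrays (limma, adjusted p = 0.0143) and 1.15 ± 0.27 with 16 (adjusted p = 0.0274).

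Both other members of that group gave smaller differences that did not pass. Ccl2, the best known monocyte attractant, had signals of 437, 531 and 762 in females, against 70.8, 449.5 and 774 in males, and its log2 difference was 0.23 ± 0.15 (limma, adjusted p = 0.332 with 15 arrays). Ccl7, a further Ccr2 ligand, differed by 0.19 ± 0.16 (adjusted p = 0.465). All 4 genes of the group were positive, and 2 passed with 15 arrays. They come from 1 run of neighbouring genes and are not independent measures of sex.

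Ccr2, the receptor that monocytes carry, had signals of 753, 899 and 1455 in females, against 130, 530 and 656 in males. The sexes did not overlap, and the lowest female array (753) lay above the highest male array (656). On the log2 scale the difference was 0.76 ± 0.14 with 15 arrays (limma, adjusted p = 0.00233) and 1.01 ± 0.28 with 16 (adjusted p = 0.0608). Ccl8 and Ccr2 were the members higher in every female than in every male array, as 3.46% of genes were with 16 arrays and 3.92% with 15.

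Ccl5, which attracts T cells and monocytes, had signals of 195, 362 and 459.9 in females, against 22.5, 173.5 and 283 in males. Of the females, the 18 h array (195) lay within the male range, and the other 7 lay above it. Its log2 difference was 1.05 ± 0.18 with 15 arrays (limma, adjusted p = 0.00178) and 1.29 ± 0.30 with 16 (adjusted p = 0.0274). Its chromosomal neighbours that passed the signal filter gave differences near 0. Ccl9 and Ccl6, both ligands of Ccr1, differed by -0.03 ± 0.10 and 0.09 ± 0.09 with 15 arrays (adjusted p = 0.907 and 0.579), and Ccr1 itself by -0.01 ± 0.14 (adjusted p = 0.972). With 16 arrays Ccl9 gave 0.31 ± 0.35 (adjusted p = 0.693). Below the filter, Ccl3 of the same run gave 0.76 and Ccl4 gave 0.02 with 15 arrays.

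**Figure D2:**
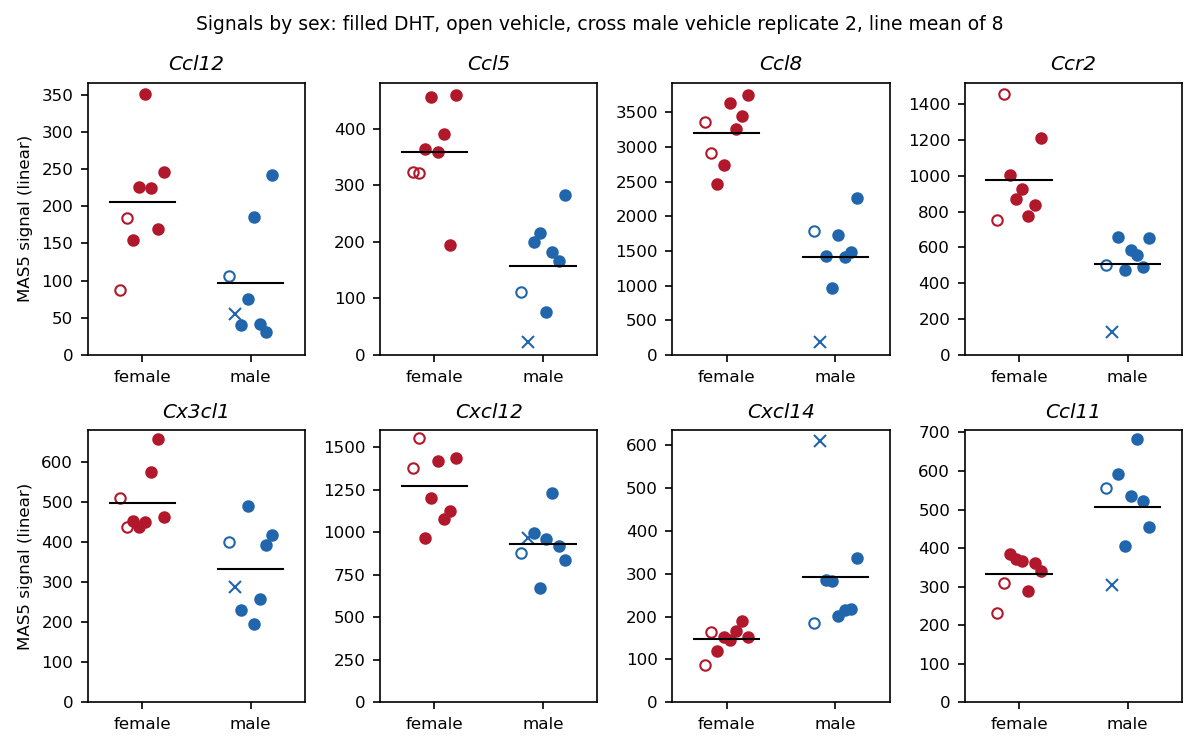
MAS5 signals (linear scale, arbitrary units) of the 8 members past the threshold with 15 arrays, 1 point per array, females left and males right. Filled points are DHT arrays, open points vehicle arrays, the cross male vehicle replicate 2 and the line the mean of 8. Ccl8 (3196 ± 451 in females, 1406 ± 617 in males, SD) and Ccr2 show a gap between the sexes, while Ccl11 and Cxcl14 lie lower in females.

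Cx3cl1 (fractalkine), a chemokine tethered to the membrane of the cells that make it, had signals of 436, 457 and 656 in females, against 195, 340.1 and 490.1 in males. The ranges overlapped. The log2 difference was 0.57 ± 0.16 with 15 arrays (limma, adjusted p = 0.0317) and 0.60 ± 0.16 with 16 (adjusted p = 0.0546), but a second, dimmer probe set gave -0.08 ± 0.29 with 15. Cx3cr1, its receptor, differed by 0.23 ± 0.14 (adjusted p = 0.297).

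Cxcl12, which retains stem cells and lymphocytes in marrow, had signals of 965, 1291 and 1557 in females, against 673, 938 and 1231 in males. The ranges overlapped, and the log2 difference was 0.43 ± 0.13 with 15 arrays (limma, adjusted p = 0.0405) and 0.44 ± 0.14 with 16 (adjusted p = 0.0863). Its other probe sets gave 1.01 ± 0.18 and 0.16 ± 0.15 with 15 arrays, so that the direction was shared and the size was not. Ackr3, the atypical receptor that takes up Cxcl12, differed by -0.32 ± 0.14 (adjusted p = 0.137).

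Lower in females were Ccl11 and Cxcl14. Ccl11 (eotaxin), which attracts eosinophils through Ccr3, had signals of 233, 352 and 384 in females, against 304, 529 and 684 in males. Without male vehicle replicate 2 (304) every male array, from 405 upward, lay above every female array, as in 2.83% of genes with 15 arrays. On the log2 scale Ccl11 differed by -0.64 ± 0.14 with 15 arrays (limma, adjusted p = 0.00697) and -0.57 ± 0.15 with 16 (adjusted p = 0.0546). Ccl11 thus went against its neighbours Ccl12 and Ccl8 on chromosome 11.

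Cxcl14, a chemokine made in many resting tissues, had signals of 87.3, 152 and 191 in females, against 186, 251 and 609 in males. Overlap was slight, with 1 female array (191) above the lowest male array (186). Its log2 difference was -0.65 ± 0.17 with 15 arrays (limma, adjusted p = 0.0201) and -0.85 ± 0.25 with 16 (adjusted p = 0.0762). Both Ccl11 and Cxcl14 were lower in the female array at all 6 DHT times, as 9.4% of genes were. The 6 members higher in the female array at all 6 times were Ccl12, Ccl5, Ccl6, Ccl8, Ccr2 and Cx3cr1, beside 10.8% of genes.

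Of the neutrophil-attracting and interferon-linked ligands, Cxcl1 and Cxcl9 passed the signal filter. Cxcl1, which attracts neutrophils, differed by 0.50 ± 0.17 and missed the threshold (limma, adjusted p = 0.0631 with 15 arrays). Cxcl9, induced by interferon gamma, differed by 0.03 ± 0.10. When genes of any signal were fitted, Cxcl2 and Cxcl10 also passed, and 10 of 42 members did so (23.8%, beside 11.3% of 8252 genes, 15 arrays). Cxcl2 averaged 74.0 ± 16.1 across females and 33.9 ± 17.4 across males (SD, 8 arrays each), and Cxcl10 had 56.6 ± 19.2 in females and 26.5 ± 21.6 in males. These signals lie where background is a large share, and they are given as measured.

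The calls were repeated on other sets of arrays. On the 12 DHT arrays alone, which hold no vehicle array, 7 members passed (31.8%, beside 13.2% of genes): the same 8 without Cxcl12. When each of the 15 arrays was left out as well, Ccl8, Ccl5, Ccl12, Ccr2 and Ccl11 passed in 15 of 15 fits, Cxcl14 in 11, Cx3cl1 in 7 and Cxcl12 in 4. Outside these 8, Ackr2 (lower in females) and Cxcl1 (higher) each passed in 2 of the 15 fits. These fits are not independent, since leaving out the male or the female array of a DHT time gives the same sex difference. With male vehicle replicate 2 kept, the count of members, given without the share of all genes, depended on single arrays. It was 3 without male vehicle replicate 1 and 2 without the male or the female 24 h array. It was 1 without the male or female 1, 3 or 18 h array or female vehicle replicate 1, and 0 (9 to 12 with an unadjusted p under 0.05) without the male or female 6 or 12 h array or female vehicle replicate 2.

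Markers of other cells moved with sex in the same direction as Ccl8 and Ccr2. The summed signal of 17 macrophage genes was 36700 to 49400 in females, against 7190 to 33300 in males, or 26100 to 33300 without male vehicle replicate 2. With 15 arrays 12 of 15 tested macrophage genes passed as higher in females, among them Adgre1 (800 ± 132 in females, 404 ± 118 in males) and Lyz2 (6160 ± 1020 in females, 3160 ± 921 in males, each an SD over 8 arrays). Higher in females were also 4 of 7 dendritic cell genes and 6 of 8 fibroblast genes tested. So were 4 of 4 tested genes of the mast cell and eosinophil list, all mast cell genes (Kit, Cpa3, Cma1 and Tpsb2). The eosinophil genes Epx and Prg2 lay below the signal filter. Lower in females were 7 of 13 adipocyte genes. So were 6 of 16 skeletal muscle genes, whose summed signal was 21400 to 53800 in females, against 41700 to 72700 in males without male vehicle replicate 2. Of lymphocyte genes, 3 of 6 B cell genes were higher in females, as were 2 of 8 endothelial genes. Of 3 tested T cell genes 1 passed, Thy1, which is also counted among the fibroblast genes. Cd4 (log2 difference 0.86) and Zap70 (-0.22) did not pass. Of all tested genes, 8.82% were called higher and 7.76% lower in females with 15 arrays. In whole tissue, fewer cells of a type and less RNA per cell cannot be told apart, and the part of these cells in the chemokine differences was not tested. With the macrophage level as a covariate and 15 arrays, 0 members passed (1 with an unadjusted p under 0.05), as did 1 of 5693 genes. The level itself does not overlap between the sexes, so a fit with this covariate cannot separate the level from sex. With 16 arrays and the same covariate, the log2 difference was -0.06 for Ccl8 and 0.02 for Ccr2. Ccl11, Ackr3, Ccl9 and Cxcl9 passed there as lower in females. That fit holds male vehicle replicate 2, whose macrophage level was 250, against 715 to 966 on the other male arrays. Its signals of Ccl9 and Cxcl9 were 608 and 11.4. Without that array and without the covariate, Ccl9 and Cxcl9 differed between the sexes by -0.03 and 0.03. The share of all genes called in it is not given, so these calls are not read as particular to chemokines.

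Within a sex, members were compared with the macrophage level, taken as the geometric mean signal of the 17 genes. Of 44 relations (22 members in 8 females and in 7 males), 1 passed. Ccl7 tracked the level in males at r = 0.99 (exact permutation p = 0.000794, adjusted 0.0349, rho = 0.93 with exact p = 0.00675, adjusted 0.148), and r was 0.94 without the 2 arrays farthest from the median level. In females the same relation was r = 0.14 (rho = 0.24, exact permutation p = 0.738 and 0.582). Ccr2 gave r = 0.85 and rho = 0.93 in males (exact permutation p = 0.00238 and 0.00675, adjusted 0.0524 and 0.148) and r = 0.30 and rho = -0.02 in females (exact permutation p = 0.459 and 0.977).

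**Figure D3:**
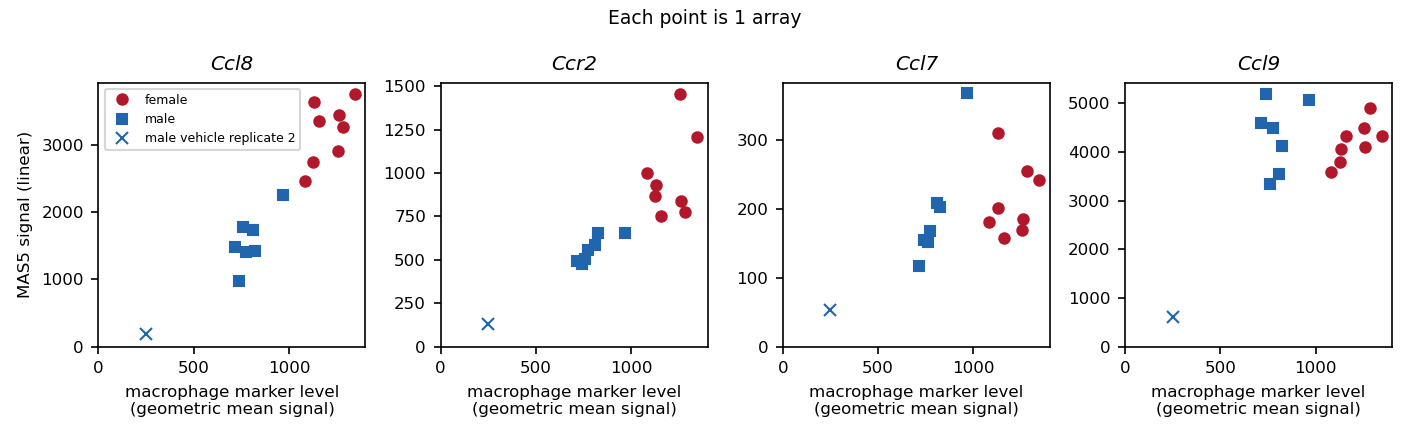
Signals of Ccl8, Ccr2, Ccl7 and Ccl9 (linear MAS5 scale) against the macrophage marker level of each array, the geometric mean signal of 17 genes, with females as circles and males as squares. Female arrays lie at levels of 1080 to 1350 and the males other than male vehicle replicate 2 (cross, 250) at 715 to 966, so the sexes share no range of marker level, and Ccl7 rises with the level among the males.

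Ligand and receptor pairs were compared within a sex in the same way. None of 28 relations passed after adjustment. Ccl7 with its receptor Ccr2 in males had the smallest p for r (r = 0.81, rho = 0.79, exact permutation p = 0.0107 and 0.048, adjusted p for r = 0.183), against r = -0.07 in females. Next were Ccl2 with its neighbour Ccl7 in males (r = 0.89, rho = 0.93, exact permutation p = 0.0131 and 0.00675, adjusted p for r = 0.183) and Cx3cl1 with its receptor Cx3cr1 in females (r = 0.80, rho = 0.71, exact permutation p = 0.0228 and 0.0576, adjusted p for r = 0.213).

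DHT gave no call among the chemokine genes. Over all 6 times against vehicle, 0 of 22 members passed in limma with 16 arrays and 0 with 15, beside 0.0703% and 0.0878% of genes. At an unadjusted p under 0.05 there were 3 members with 16 arrays (Ccl2, Ccl7 and Ccl5) and 1 with 15 (Ccl2). Of 9 tested genes that steroid receptors are known to induce, 4 rose with 16 arrays and 5 with 15, a list already chosen with these data in view. The members' median log2 difference was 0.34 with 16 arrays and 0.07 with 15, beside 0.04 and 0.01 over all genes.

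Ccl2 had the smallest p. In females its signals were 604, 762, 536, 525, 540 and 479 at the 6 times after DHT, in order, against 437 and 452 after vehicle. In males they were 491, 455, 543, 444, 385 and 774 after DHT, against 311 and 70.8 after vehicle. Each DHT array lay above both vehicle arrays of its sex, the 70.8 being male vehicle replicate 2. The share of all genes with such an order was not counted, so it is not read as particular to Ccl2. The log2 difference was 0.98 ± 0.34 with 16 arrays (limma, adjusted p = 0.631) and 0.46 ± 0.18 with 15 (adjusted p = 0.998).

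Ccl7 showed a like order, with signals of 180.4, 201, 310, 254, 184 and 241 in females after DHT, against 157 and 169 after vehicle. In males they were 202, 155, 209, 167, 117 and 367 after DHT, against 152 and 52.8 after vehicle, so that the 18 h array lay between the vehicle arrays. The log2 difference was 0.69 ± 0.25 with 16 arrays (limma, adjusted p = 0.631) and 0.38 ± 0.20 with 15 (adjusted p = 0.998). Neither gene passed under any setting tried.

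Several differences seen with 16 arrays were smaller without male vehicle replicate 2. Cxcl9 had a signal of 11.4 there and 400 on male vehicle replicate 1, and its log2 difference was 1.24 ± 0.59 with 16 arrays but 0.21 ± 0.13 with 15. Ccl8 gave 0.68 with 16 and -0.07 ± 0.13 with 15, and Ccl9 gave 0.76 with 16 and 0.09 ± 0.13 with 15. None of the 3 passed in either fit. Over all times the direction of 7 of 22 members differed between the fits of 16 and 15 arrays, among them Ccl8, Ccr2 and Cxcl14.

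**Figure D4:**
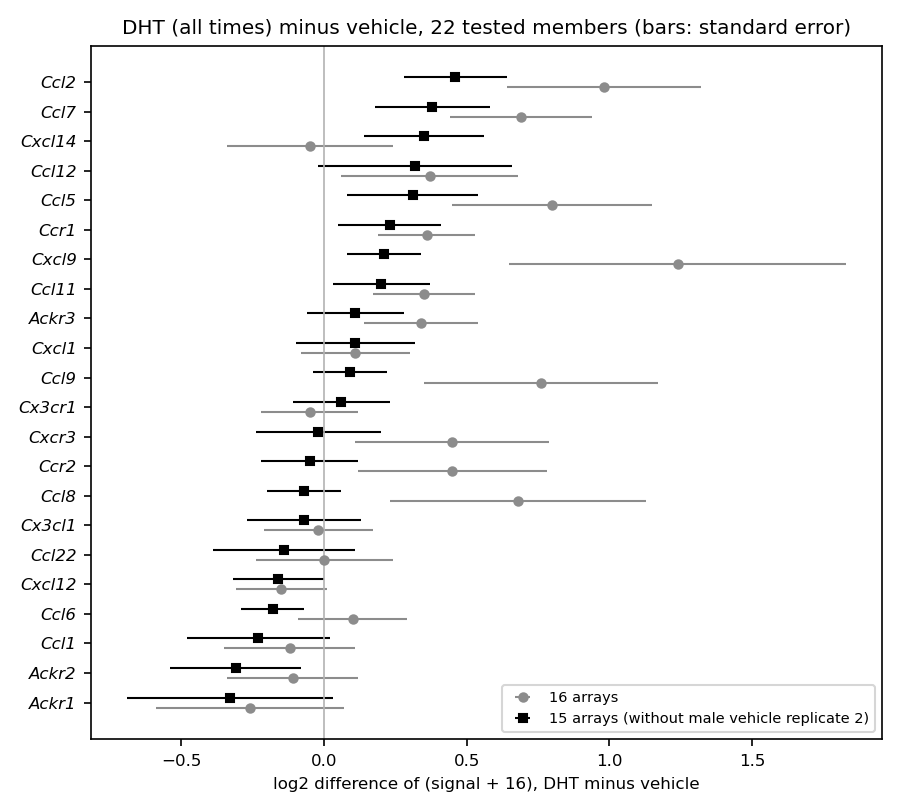
The log2 difference of (signal + 16), DHT over all times minus vehicle, for the 22 tested members, with bars of 1 standard error. Circles (16 arrays) lie to the right of squares (15 arrays, without male vehicle replicate 2) for Cxcl9, Ccl9, Ccl8 and Ccl2, and no point is ringed, since no member had an adjusted p under 0.05.

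Single times gave 0 calls among members in limma, with 16 and with 15 arrays. From 1 h to 24 h the share of genes called was 0%, 0.0176%, 0.0527%, 0.0527%, 0% and 0% with 16 arrays, and 0%, 0.0176%, 0.0878%, 0.0703%, 0.0351% and 0.0176% with 15. Members with an unadjusted p under 0.05 numbered 1, 1, 2, 0, 1 and 4 with 16 arrays and 2, 3, 2, 0, 1 and 5 with 15. Each time rests on 1 array per sex.

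The 24 h arrays gave the most such members. Ccl7 differed from vehicle by 0.87 ± 0.28, Ccl12 by 1.12 ± 0.48 and Ccl2 by 0.65 ± 0.26, and Ccl5 of the second run by 0.80 ± 0.32 (log2, 15 arrays, limma adjusted p = 0.999 for each). The fifth, Ccl1, a T cell-derived ligand of Ccr8 in the same run as Ccl2, went the other way at -0.83 ± 0.35 (adjusted p = 0.999). With 16 arrays the first 4 differed by 1.18, 1.16, 1.17 and 1.30 (adjusted p = 0.93 for each), and Ccl1 gave -0.72 ± 0.35. In males the 24 h array held the highest signal of Ccl2 (774), Ccl7 (367), Ccl12 (242) and Ccl5 (283). In females the 24 h array was highest for Ccl5 (459.9) alone of these 4. The macrophage level was also highest among males on the 24 h array, at 966, and its part in these values was not tested.

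Early times held the lowest signals of Ccl6 and Ccl8 after DHT. Ccl6, made by macrophages, had 387, 325, 502, 401, 538 and 577 at the 6 times in females, against 498 and 475 after vehicle, and 337, 318, 478, 392, 478 and 497 in males, against 503 and 209. Both sexes were lowest at 3 h among the DHT arrays, and its log2 difference there was -0.58 ± 0.15 with 15 arrays (limma, unadjusted p = 0.00276, adjusted p = 1) and -0.30 ± 0.28 with 16 (adjusted p = 0.907). For Ccl8 the 3 h difference was -0.49 ± 0.18 with 15 arrays (adjusted p = 1), but 0.26 ± 0.67 with 16 (adjusted p = 0.935), so its direction depended on male vehicle replicate 2. Ackr3 was highest at 1 h in both sexes, at 512 in the female and 712 in the male array, and differed from vehicle by 0.61 ± 0.24 with 15 arrays (adjusted p = 0.998) and 0.84 ± 0.30 with 16 (adjusted p = 0.961).

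The 12, 18 and 24 h arrays were set against the 1, 3 and 6 h arrays, 6 against 6. No member passed in limma with 16 arrays (0% of genes, 0 members with an unadjusted p under 0.05) or with 15 (0.0351% of genes, 3 members unadjusted). The 3 were Ccl6 (0.30 ± 0.10, adjusted p = 0.494) and Ccl8 (0.29 ± 0.11, adjusted p = 0.621), higher late, and Ackr3 (-0.43 ± 0.15, adjusted p = 0.539), lower late.

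The course over the 6 times was compared between the sexes for each of the 22 members. Ccl6 followed the same order closely (r = 0.97, exact permutation p = 0.00278, adjusted 0.0458, rho = 0.94 with exact p = 0.0167, adjusted 0.183), and r was 0.95 without the 2 times farthest from the median. Cx3cr1 gave r = 0.98 (exact permutation p = 0.00417, adjusted 0.0458, rho = 0.94, adjusted 0.183), and 0.80 without 2 times. Its signals were 332, 388, 282, 339, 718 and 337 in females and 282, 312, 271, 299, 406 and 272 in males, both highest at 18 h. No other member passed, and no source used here says whether arrays of 1 time were processed together.

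**Figure D5:**
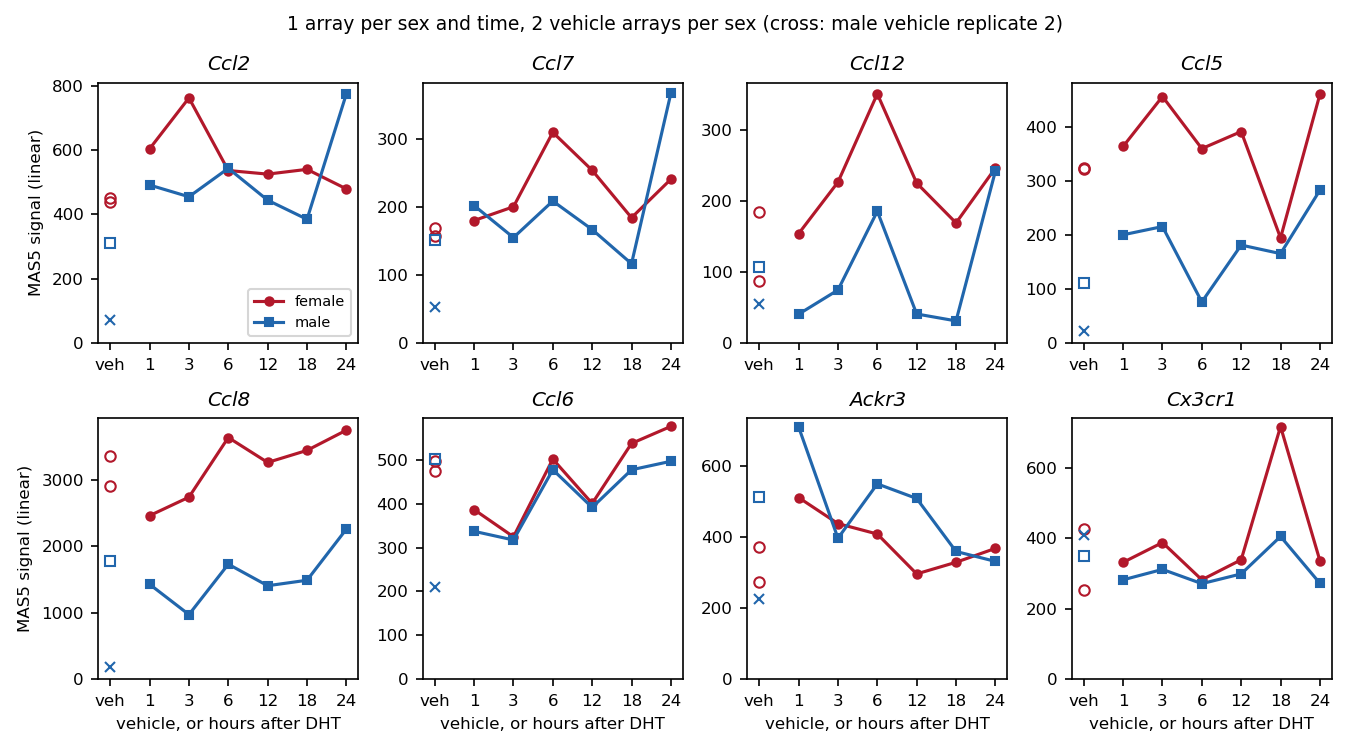
Linear MAS5 signals of 8 members after vehicle and at 1 to 24 h after DHT, with 1 array per sex and time, females as circles and males as squares. Ccl8, Ccl12 and Ccl5 run higher in females at each time after DHT, Ccl6 dips at 3 h in both sexes, and Cx3cr1 peaks at 18 h in both (718 in the female and 406 in the male array).

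The sexes' responses to DHT were compared directly by an interaction term. No member passed in limma with 16 arrays (0% of genes, 4 members with an unadjusted p under 0.05) or 15 (0% of genes, 1 member). With 16 arrays the 4 were Cxcl9 (-2.32 ± 1.00), Ccl9 (-1.74 ± 0.65), Ccl5 (-1.31 ± 0.59) and Ccr2 (-1.25 ± 0.56), each with an adjusted p of 0.593 and a low signal on male vehicle replicate 2. With 15 arrays Ccl9 gave -0.52 ± 0.23 (adjusted p = 1), which rests on 1 male vehicle array.

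Genes that act with chemokines were taken from wider lists. Of 14 tested genes of chemokine receptor signalling, 3 were higher in females with 15 arrays (Rgs16 and Rgs2, which dampen G protein signals, and Dock2, which drives leukocyte migration) and 0 lower, and the list's median log2 difference was 0.04. Of 14 tested inducers of chemokines, 3 were higher (Il1r1, Tnfrsf1b and Irf7) and 0 lower, with a median of 0.10. Of all tested genes, 8.82% were called higher in females with 15 arrays. With 16 arrays Dock2 and Irf7 did not pass. No gene of either list passed for DHT over all times.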

How the data were processed

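The authors deposited signal intensities on a linear scale, computed with MAS5 for each array, per the submitters' processing notes, which give no version. Every array has a mean signal of 500 after trimming 2% of probe sets at each end, so levels are relative to the whole array. Detection calls were not used here, and the number of arrays limits the precision. Of 12488 probe sets (66 controls), 10855 had 1 gene symbol, 396 several (not used) and 1237 were unlisted in the platform annotation.

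Genes were tested on log2(signal + 16), which understates changes of dim genes. Factors for sex and time were fitted with limma 3.58.1 in R 4.3.3 (8 residual degrees of freedom; 7 with a sex by DHT term), with eBayes and a trend. P-values are two-sided and adjusted by Benjamini-Hochberg over 5693 genes, with a threshold of 0.05. The script was tested on simulated data. Correlations used two-sided exact permutation tests.

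The members and gene lists were chosen with earlier results of these data known. Members were named if past the threshold, among the smallest p of a contrast, among the 10 highest mean signals, or in a tested ligand-receptor pair. Alternatives were quantile normalisation, pseudocounts of 1 and 64, the signal filter, probe set means, control and macrophage covariates, no trend, DHT as 1 group, and leaving out arrays.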

Additional observations from a re-analysis of the deposited data

Results flagged for a closer look

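Single arrays far from the rest of their group were looked for among the 22 tested members, in females, males, vehicle, early DHT and late DHT arrays. Chance marks about 1 in 20 groups, and 14 of 110 were marked here. On male vehicle replicate 2, Ccl7 had a signal of 52.8 (nearest vehicle array 152), Ccl6 209 (475), Cxcl14 609 (nearest male array 335), Ccr2 130 (474), Ccl9 608 (3330) and Cxcl9 11.4 (400). That array also held the high muscle signals. Cx3cr1, the fractalkine receptor, had 718 on the female 18 h array, against 426 on the nearest female and 406 on the nearest late array. Ccl22, a ligand of Ccr4, had 618 on the same female 18 h array, against 365 on the nearest late array. Ccl7 had 310 on the female 6 h array (nearest early array 209), and Ccl9 had 5190 on the male 3 h array (nearest early array 4120). Ackr3 had 510 on the male 12 h array (nearest late array 369), Cxcl14 had 335 on the male 24 h array (nearest late array 219), and Ackr1, the Duffy antigen receptor, had 268 on female vehicle replicate 1 (nearest vehicle array 146).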

How the results depend on the processing

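Between the sexes, 2 of 22 members passed with 16 arrays. The count was 4 with a pseudocount of 64 and with no signal filter, 0 with a filter at the 60th percentile (12 members tested, 5 with an unadjusted p under 0.05), 4 (all lower in females) with the macrophage covariate, and 7 on the 12 DHT arrays. Leaving out 1 array gave 0 to 8, with 8 without male vehicle replicate 2; where a DHT array is left out, the other sex's array of that time no longer informs the sex difference. Other settings gave 2 or 3. Of all genes, 4.16% were called with no filter, 13.2% on the 12 DHT arrays and 16.6% without male vehicle replicate 2. With that array and the filter both left out it was 11.3%. For the remaining settings no share of all genes is given, and their counts show only how the calls move. Alternatives chosen after seeing the data left out that array as well: 10 members passed with the control covariate or no filter, 7 on the 14 arrays without male vehicle arrays, and 0 with the macrophage covariate (1 unadjusted), where Ccl12 turned to -0.46. With 15 arrays, leaving out each further array gave 6 to 8.

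The sex difference of the DHT response gave 0 members except 9 without male vehicle replicate 1, when male vehicle replicate 2 stood alone for its group (range 0 to 9). DHT over all times, each DHT time, and late against early gave 0 under every setting run. Directions also turned for Ccl8 between the sexes (-0.06, macrophage covariate), Cx3cl1 at 1 h (0.20, mean of probe sets), and Cxcl14 in the sex difference of the response (-0.01 with the macrophage covariate, and -0.10 without male vehicle replicate 2, range -0.10 to 1.53, also with the control covariate or no filter). So did Ccl12 late against early (0.02 without the male 12 h array, 0.06 without the female 24 h array, range -0.37 to 0.06) and Ccl1 over all DHT times (0.12 without female vehicle replicate 1, range -0.29 to 0.12). The causes were not tested. Between the fits of 16 and 15 arrays, 7 of 22 members turned direction for DHT over all times, 3 to 6 at single times (Ccl8 at 3 h had 0.26 and -0.49), 2 between the sexes (Ccl9 and Ccr1) and 7 in the interaction of sex with DHT, none of them past the threshold in either fit. No paired analysis by replicate number was possible because the labels give none; time is a factor of the fit, so the sexes were compared within each time. Signals near the filter hold more background, which limits the 20 dim members.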

Other observations

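Among the 20 dim members, 4 further genes are given that did not pass between the sexes (limma fitted to all 8252 genes, 15 arrays). Ccl3, a macrophage inflammatory ligand, differed by 0.76 ± 0.24 (female minus male, log2, adjusted p = 0.0639) and Cxcr4, the signalling receptor of Cxcl12, by 0.51 ± 0.17 (adjusted p = 0.0752). Ccr7, which guides cells to lymph nodes, differed by 0.47 ± 0.20 (adjusted p = 0.162). Cxcr5, the B cell receptor for Cxcl13, was lower in females by the fitted value, at -0.49 ± 0.16 (adjusted p = 0.0658). These 4 genes were picked after their values were seen.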
